A study of Mus musculus with 8 samples.

Results

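The 33 genes described here encode the mitochondrial pathway that oxidises fatty acids, together with 2 enzymes of ketone body metabolism, the nuclear receptors that control the pathway, and proteins that bring fatty acids to it. They were taken by gene symbol from a table of 24411 genes, and all 33 were measured and passed the filter on low counts. RNA was sequenced from hepatocytes, the cell type that makes up most of the liver and does most of its metabolic work, 2 days after the cells were plated. In 4 libraries (Taf2 KO) Taf2 had been deleted by a conditional allele in hepatocytes only, and 4 further libraries came from wild-type mice (WT). The product of Taf2 is a subunit of TFIID, which assembles at the core promoter so that RNA polymerase II can start transcription. The labels name neither the Cre driver nor the deleted exons, the strain, age or sex of the mice, nor the time since deletion. They also do not say whether the 4 libraries of a genotype came from separate animals or cultures, so p-values measure the spread between these libraries, which may be technical.

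Fatty acid oxidation shortens an acyl chain in repeated rounds inside the mitochondrion. A fatty acid is taken up, bound in the cytosol and activated to its CoA ester, then carried across the mitochondrial membranes as a carnitine ester. Each round consists of a dehydrogenation, a hydration, another dehydrogenation and a thiolysis. Electrons of the first dehydrogenation leave through the electron transfer flavoprotein. The liver turns much of the resulting acetyl-CoA into ketone bodies during fasting, and PPAR-alpha, the product of Ppara, is the nuclear receptor best known for raising transcription of these genes.

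The sequence just upstream of the start site is shown for 4 of the genes whose values are described below. The core promoter, where TFIID assembles, also includes the start site and bases after it, and the windows leave these out. RefSeq promoter sequences on build GRCm38.p6 were matched for 28 of the 33 genes, and the 250 bases before each start site were searched. Fabp1, which was higher in Taf2 KO, is given because its window holds a TATA box and a match to the PPAR element, Acadm and Hadh because they changed in opposite directions, and Hadhb because it shares its upstream region with Hadha. Capitals mark motif matches, and each sequence runs 5′ to 3′ on the strand of its gene and ends at the base before the start site. The windows are chr6:71199629-71199878 on the plus strand (Fabp1), chr3:153944644-153944893 on the minus strand (Acadm), chr3:131272102-131272351 on the minus strand (Hadh) and chr5:30155003-30155252 on the plus strand (Hadhb).
Fabp1: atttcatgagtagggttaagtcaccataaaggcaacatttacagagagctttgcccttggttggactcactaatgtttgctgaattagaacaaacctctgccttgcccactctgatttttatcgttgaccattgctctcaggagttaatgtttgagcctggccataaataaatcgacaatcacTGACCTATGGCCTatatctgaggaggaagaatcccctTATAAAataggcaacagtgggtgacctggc
Acadm: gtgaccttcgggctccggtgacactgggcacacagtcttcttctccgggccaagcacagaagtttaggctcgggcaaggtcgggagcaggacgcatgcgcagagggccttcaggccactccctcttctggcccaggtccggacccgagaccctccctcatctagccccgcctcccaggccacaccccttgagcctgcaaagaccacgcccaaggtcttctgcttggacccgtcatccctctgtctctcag
Hadh: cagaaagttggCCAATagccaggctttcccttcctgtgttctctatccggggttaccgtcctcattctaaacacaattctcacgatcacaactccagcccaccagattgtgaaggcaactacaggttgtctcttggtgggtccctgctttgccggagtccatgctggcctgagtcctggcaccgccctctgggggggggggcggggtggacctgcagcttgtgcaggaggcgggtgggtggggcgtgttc
Hadhb: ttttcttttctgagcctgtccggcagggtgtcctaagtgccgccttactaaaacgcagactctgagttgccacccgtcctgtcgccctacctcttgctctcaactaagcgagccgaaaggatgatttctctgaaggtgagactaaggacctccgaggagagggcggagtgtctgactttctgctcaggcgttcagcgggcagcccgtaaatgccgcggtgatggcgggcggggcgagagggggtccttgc

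Each motif was searched on both strands. TATAAA was found in 1 of 30 promoters of these genes (3.33%), that of Fabp1 at bases -30 to -25 from the start, and in 12.4% of all 32851 promoters in the table. CCAAT was found in 12 of 30 (40.0%), Hadh among them, against 33.8% of all promoters. The PPAR element, AGGTCA repeated after 1 base of any kind and with at most 2 mismatches, was found in 4 of 30 (13.3%), those of Cd36, Echs1, Etfa and Fabp1, against 3.24% of all promoters. In Fabp1 it lay on the minus strand at bases -67 to -55 with 1 mismatch, and it overlapped no other match in that window. The windows of 6 of the 30 promoters (Acsl1, Bdh1, Cd36, Cpt1a, Eci2 and Ppara) lie inside the gene as GENCODE annotates it, so their start sites are uncertain. Among the other 24, CCAAT was found in 8 (33.3%), the PPAR element in 3 (12.5%) and TATAAA in 1 (4.17%). These are letter matches and not measured sites, and they do not show where or how Taf2 acts.

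Taf2 itself was measured in every library first. It had 13.9, 15.7, 13.4 and 12.7 CPM (counts relative to library size, scaled between libraries by TMM) in the Taf2 KO libraries, against 42.5, 46.4, 45.1 and 42.2 CPM in WT. All Taf2 KO values lay below all WT values, with a log2 fold change of -1.66 ± 0.0612 (SE, edgeR adjusted p = 9.03e-15). Estimated counts summed to between 20287023 and 23933589 per Taf2 KO library and between 18947059 and 22824568 per WT library. Hepatocyte markers were abundant in both genotypes, with a summed level of 69312 to 76250 CPM in Taf2 KO and 54723 to 59456 CPM in WT, and 6 of 11 tested markers were higher and 3 lower. The direction of that sum was set by Alb, the albumin gene, at 55183 CPM in Taf2 KO and 38035 CPM in WT. Without Alb the other markers summed to 16421 to 16823 CPM in Taf2 KO and 18401 to 19354 CPM in WT. That sum was lower in Taf2 KO. Apob had the largest fall in CPM of the list, averaging 3397 CPM in Taf2 KO and 5694 CPM in WT. The 3 called lower were Apob (log2 fold change -0.75), Cps1 (-0.65) and Apoa1 (-0.29). Called higher were Alb (0.54), Ttr (0.56), Apoa2 (0.41), Ass1 (0.27), Cyp2e1 (0.88) and Fah (0.18). The median log2 fold change of the 11 tested hepatocyte markers was 0.18. Of all 12122 genes tested, 30.2% were called higher and 31.2% lower, and the marker counts in this paragraph stand beside those shares. Markers of other liver cells were also higher in Taf2 KO. All 13 tested macrophage markers passed, with sums of 327 to 357 CPM in Taf2 KO and 153 to 178 CPM in WT and a median log2 fold change of 2.11. Cd68 and Cd14 carried most of that sum and had log2 fold changes of 1.04 and 0.44. Of the endothelial markers 12 of 13 passed, with sums of 183 to 192 CPM in Taf2 KO and 72.2 to 80.5 CPM in WT and a median log2 fold change of 1.60. Among stellate cell markers 10 of 12 were higher and 1 lower, with sums of 186 to 199.9 CPM in Taf2 KO and 95.4 to 98.8 CPM in WT and a median log2 fold change of 2.10. No listed macrophage, endothelial or stellate marker was at 0 in every library. Cholangiocyte markers summed to 153 to 181 CPM in Taf2 KO and 116 to 129 CPM in WT, with 2 of 4 tested higher (Sox9 and Spp1, which carried most of the sum) and 2 lower (Krt7 and Krt19). Blood cell markers summed to at most 21.7 CPM in Taf2 KO and at least 25.6 CPM in WT, nearly all of it Alas2, an erythroid gene (19.2 CPM in Taf2 KO and 25.8 CPM in WT). The only other tested marker of that list, the neutrophil gene Mmp8, was higher in Taf2 KO (log2 fold change 3.09), with Cd3g and Nkg7 among those at 0 in all libraries. The part of these cell type differences in the results below was not tested. In bulk RNA, fewer cells of a type and less RNA per cell cannot be told apart.

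The 33 genes moved in both directions. In Taf2 KO hepatocytes 16 were lower, among them Cpt1a, Slc25a20, Hadh, Acot2 and Bdh1, and 11 were higher, among them Acadm, Acaa2, Slc27a2 and Fabp1, while 6 did not pass the test. The summed level of all 33 was 2233 ± 30.4 CPM in Taf2 KO and 2232 ± 14.3 CPM in WT (SD, n = 4 each). The largest rises in CPM were those of Acadm (mean 253 CPM in Taf2 KO and 180 in WT) and Acaa2 (211 and 139). They offset falls in other genes, so the equal sums do not mean unchanged levels. Genotypes were compared with edgeR's quasi-likelihood test across 12122 genes with Benjamini-Hochberg adjustment, and a gene was called at an adjusted p under 0.05. That test called 27 of the 33 (81.8%), against 61.4% of all genes tested. The share called higher was 33.3%, against 30.2% of all genes, and the share called lower was 48.5%, against 31.2%. Restricted to genes that averaged 10 CPM or more, 8 of 28 members were higher and 14 lower, while over all such genes 28.7% were higher and 35.9% lower. CPM ranges did not overlap for 25 of the 33 genes, 10 higher and 15 lower, against 54.7% of all genes. A call with a log2 fold change of at least 0.4 in either direction was made for 13 (39.4%), against 27.3% of all genes. Only 2, Acot1 and Acot2, reached 1 in either direction, where 9.5% of all genes did. The median log2 fold change of the 33 was -0.06, beside -0.0035 over all genes, and the median size of change was 0.29, beside 0.22.

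**Figure D1:**
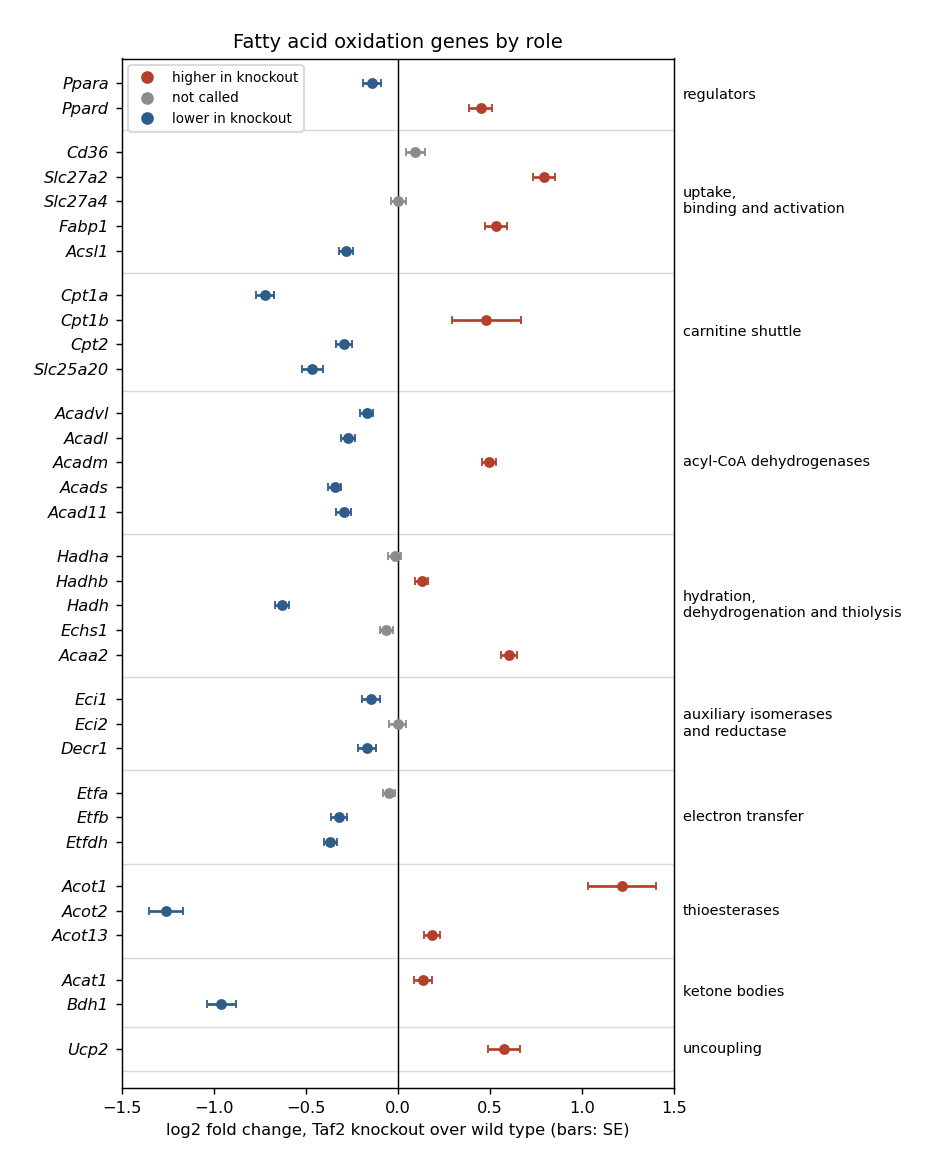
Log2 fold change (Taf2 KO over WT) of the 33 genes, grouped by role, with points for the edgeR estimate and bars for its standard error from 4 libraries per genotype. Red points are the 11 genes called higher, blue points the 16 called lower and grey points the 6 not called, and each role with more than 2 genes except the auxiliary enzymes and electron transfer holds points on both sides of 0.

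The receptor genes moved in opposite directions. Ppara had 46.2, 45.2, 41.3 and 44.0 CPM in Taf2 KO, against 46.4, 53.1, 48.2 and 46.9 CPM in WT. The ranges did not overlap but lay close together, and Ppara was lower by -0.14 ± 0.0490 on the log2 scale (edgeR adjusted p = 0.0191). This call was lost without Taf2 KO replicate 3 (adjusted p = 0.083) or WT replicate 2 (adjusted p = 0.0829) and when a change of more than 0.2 was required, and over the 18 alternatives the adjusted p ran from 0.00532 to 1.00. Ppard, which encodes the widely expressed receptor PPAR-delta, had 24.1, 22.6, 25.8 and 22.5 CPM in Taf2 KO, against 16.4, 16.5, 18.4 and 18.5 CPM in WT. Every Taf2 KO library was above every WT library, with a log2 fold change of 0.45 ± 0.0648 (edgeR adjusted p = 5.29e-06). The macrophage, endothelial and stellate markers, from cells that also express Ppard, were higher in the same libraries, and their part in this rise was not tested.

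Genes that handle fatty acids before they enter the mitochondrion rose or did not pass, except for the activating enzyme. Slc27a2, which encodes the liver transport protein FATP2, had 56.1, 52.7, 64.5 and 53.5 CPM in Taf2 KO, against 33.9, 33.7, 33.4 and 30.1 CPM in WT. The ranges were well apart, and Slc27a2 was higher by 0.79 ± 0.0591 (log2 fold change ± SE, edgeR adjusted p = 4.26e-10). Fabp1, the cytosolic fatty acid binding protein of liver whose promoter is printed above, had 94.4, 81.1, 101 and 86.3 CPM in Taf2 KO, against 61.8, 63.8, 56.3 and 69.0 CPM in WT. Its log2 fold change was 0.53 ± 0.0602 (edgeR adjusted p = 2.09e-07), again without overlap. Both genes are hepatocyte genes, and the hepatocyte markers moved in both directions in the same libraries, with a sum that was higher with Alb and lower without it. Acsl1, the main long-chain acyl-CoA synthetase of liver, went the other way, with 49.4 ± 1.62 CPM in Taf2 KO and 60.0 ± 1.97 CPM in WT (SD, n = 4 each). Its log2 fold change was -0.28 ± 0.0396 (edgeR adjusted p = 3.68e-06).

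Slc27a4 and Cd36 did not pass. Slc27a4, another transport protein of the FATP family, had 97.3, 95.4, 97.3 and 89.3 CPM in Taf2 KO, against 98.6, 96.0, 95.9 and 88.5 CPM in WT. The ranges lay on top of each other, with a log2 difference of 0.00 ± 0.0404 (edgeR adjusted p = 0.978) whose sign changed with the scaling. Cd36, a fatty acid translocase of the plasma membrane that macrophages and endothelial cells also carry, had 29.6, 31.9, 32.9 and 31.8 CPM in Taf2 KO, against 27.9, 29.7, 29.8 and 30.8 CPM in WT. The 3 highest values were all from Taf2 KO, and the log2 difference of 0.10 ± 0.0511 missed the threshold (edgeR adjusted p = 0.113), although it passed with upper-quartile scaling (adjusted p = 0.0499) and without Taf2 KO replicate 1 (adjusted p = 0.0458). The macrophage markers had a median log2 fold change of 2.11 and a sum higher by 1.05 on the log2 scale, the endothelial sums did not overlap, and their part in the Cd36 values was not tested. Over the 18 alternatives the adjusted p of Cd36 ran from 0.0458 to 1.00.

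The carnitine shuttle of liver was lower at every step. Cpt1a, the outer-membrane enzyme whose inhibition by malonyl-CoA sets the rate of entry, had 47.0, 49.9, 42.8 and 48.5 CPM in Taf2 KO, against 78.7, 72.2, 82.4 and 76.6 CPM in WT. Its mean in Taf2 KO was 60.7% of that in WT, with wide separation and a log2 fold change of -0.72 ± 0.0477 (edgeR adjusted p = 6.53e-11). Slc25a20, the carnitine-acylcarnitine translocase of the inner membrane, had 21.5, 19.8, 20.4 and 20.9 CPM in Taf2 KO, against 29.0, 27.3, 30.4 and 27.3 CPM in WT. No Taf2 KO library reached the WT range, and the log2 fold change was -0.46 ± 0.0556 (edgeR adjusted p = 4.61e-07). Cpt2, which returns the acyl group to CoA in the matrix, fell less, with 40.3 ± 1.42 CPM in Taf2 KO and 49.3 ± 1.82 CPM in WT (SD, n = 4 each) and a log2 fold change of -0.29 ± 0.0430 (edgeR adjusted p = 7.02e-06). The ratio of Cpt1a to Cpt2 counts ran from 1.08 to 1.22 in Taf2 KO and from 1.49 to 1.69 in WT.

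Cpt1b, the muscle form of the outer-membrane enzyme, was close to the lower end of detection. It had 2.50, 2.45, 1.64 and 2.27 CPM in Taf2 KO, against 1.74, 1.90, 1.57 and 1.12 CPM in WT. The deposited counts of Cpt1b were not whole in 2 libraries, WT replicates 1 and 4. The ranges overlapped, and the log2 fold change of 0.48 ± 0.187 was called higher (edgeR adjusted p = 0.032). DESeq2 did not call it (adjusted p = 0.055), and it was lost without any 1 of Taf2 KO replicates 1, 2 and 4 or WT replicates 3 and 4, where the adjusted p ran from 0.0552 to 0.124. Over all 18 alternatives it ran from 0.00739 to 0.124. Adipoq, Ckm, Myh7 and Myh6, markers of fat and muscle cells, were at 0 in all libraries. The other markers of that list summed to 47.8 to 58.3 CPM in Taf2 KO and 37.5 to 45.2 CPM in WT, nearly all of it Fabp4, the one gene of the list that was tested. Other cells in these cultures can also express Fabp4, so that sum does not mark fat or muscle cells alone.

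**Figure D2:**
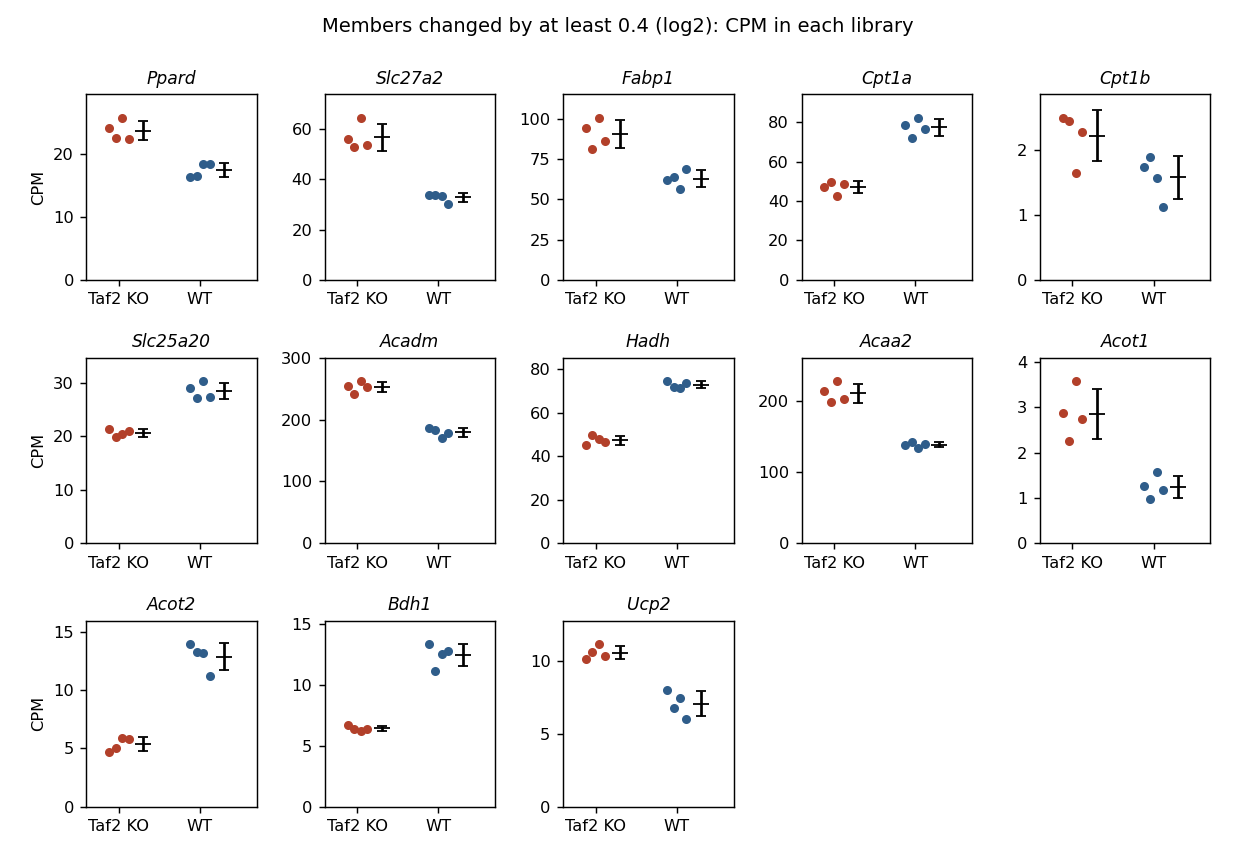
CPM in each library for the 13 genes called with a log2 fold change of at least 0.4 in either direction, Taf2 KO left and WT right in each panel, with points for libraries and a black bar and whiskers for the mean and SD of 4 libraries. The ranges of the genotypes are apart in every panel except Cpt1b, where they overlap.

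The acyl-CoA dehydrogenases, which open each round and are named for the chain length they prefer, split by member. Acadm, the medium-chain enzyme, had 255, 242, 263 and 253 CPM in Taf2 KO, against 187, 184, 171 and 178 CPM in WT. Every Taf2 KO library was above every WT library, and Acadm rose by 0.49 ± 0.0383 on the log2 scale (edgeR adjusted p = 8.03e-10). The other 4 fell. Acadvl, for very long chains, averaged 150.4 ± 6.15 CPM in Taf2 KO and 169 ± 3.44 CPM in WT, and Acadl, for long chains, averaged 106 ± 3.77 CPM in Taf2 KO and 128 ± 3.32 CPM in WT (SD, n = 4 each). Acads, for short chains, averaged 61.7 ± 1.16 CPM in Taf2 KO and 78.2 ± 2.29 CPM in WT, and Acad11, a further member of the family, averaged 47.8 ± 0.684 CPM in Taf2 KO and 58.6 ± 2.46 CPM in WT. Their log2 fold changes were -0.17 for Acadvl, -0.27 for Acadl, -0.34 for Acads and -0.29 for Acad11, with no overlap between genotypes in any of them. The ratio of Acadm to Acadl counts was 2.26 to 2.57 in Taf2 KO and 1.30 to 1.48 in WT.

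The later steps of the round also held genes on both sides. Hadh, the hydroxyacyl-CoA dehydrogenase for short and medium chains, had 45.1, 49.7, 48.0 and 46.4 CPM in Taf2 KO, against 74.7, 71.8, 71.6 and 73.8 CPM in WT. It was at 64.8% of the WT mean, with tight groups far apart and a log2 fold change of -0.63 ± 0.0384 (edgeR adjusted p = 1.91e-11). Acaa2, the mitochondrial thiolase that ends the round, had 214, 199, 229 and 203 CPM in Taf2 KO, against 139, 143, 134 and 140.4 CPM in WT. All 4 Taf2 KO libraries were higher, with a log2 fold change of 0.60 ± 0.0424 (edgeR adjusted p = 1.72e-10). Echs1, the short-chain enoyl-CoA hydratase, did not pass, with 125, 119, 121 and 126 CPM in Taf2 KO, against 129.7, 125, 127 and 132 CPM in WT. Its ranges overlapped, and the log2 difference of -0.06 ± 0.0354 (edgeR adjusted p = 0.135) passed under 1 alternative, scaling by library totals only (adjusted p = 0.0362), and ran up to 1.00 over the other alternatives.

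Hadha and Hadhb encode the alpha and beta subunits of the trifunctional protein, which carries out the last 3 steps on long chains. Their genes lie head to head on chromosome 5 with 272 bases between the start sites, 30154980 for Hadha on the minus strand and 30155253 for Hadhb on the plus strand, so the Hadhb sequence printed above is also upstream of Hadha. Hadha had 150.5, 153, 155 and 156 CPM in Taf2 KO, against 153, 154, 160.3 and 153 CPM in WT. These ranges overlapped and the log2 difference was -0.02 ± 0.0342 (edgeR adjusted p = 0.696), with a sign that turned under upper-quartile scaling. Hadhb averaged 101 ± 3.67 CPM in Taf2 KO and 92.4 ± 2.00 CPM in WT (SD, n = 4 each), and rose by 0.13 ± 0.0362 on the log2 scale (edgeR adjusted p = 0.0044). The ratio of Hadha to Hadhb counts was 1.48 to 1.56 in Taf2 KO and 1.62 to 1.72 in WT, with no overlap.

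Auxiliary enzymes, which prepare unsaturated chains for the round, moved little. The isomerase gene Eci1 averaged 32.6 ± 1.00 CPM in Taf2 KO and 36.0 ± 2.01 CPM in WT (SD, n = 4 each), with overlapping ranges and a log2 fold change of -0.14 ± 0.0496 (edgeR adjusted p = 0.0169). That call was lost without Taf2 KO replicate 1 (adjusted p = 0.0792), WT replicate 1 (adjusted p = 0.0529) or WT replicate 4 (adjusted p = 0.0615), and over the 18 alternatives the adjusted p ran from 0.0039 to 0.969. Decr1, the dienoyl-CoA reductase, averaged 34.2 ± 1.61 CPM in Taf2 KO and 38.4 ± 1.20 CPM in WT, and fell by 0.17 on the log2 scale (edgeR adjusted p = 0.00432). Eci2, the second isomerase gene, had 38.3, 38.2, 39.6 and 38.4 CPM in Taf2 KO, against 40.9, 39.0, 35.9 and 38.7 CPM in WT. The WT range enclosed that of Taf2 KO, and the log2 difference of -0.00 ± 0.0461 (edgeR adjusted p = 0.985) had a sign that changed with the scaling.

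The electron acceptors were lower in 2 of 3 cases. Etfdh, the oxidoreductase that passes electrons to ubiquinone, averaged 81.3 ± 2.79 CPM in Taf2 KO and 105 ± 1.18 CPM in WT (SD, n = 4 each), with a log2 fold change of -0.37 ± 0.0350 (edgeR adjusted p = 1.87e-08). Etfb, the beta subunit of the electron transfer flavoprotein, averaged 61.2 ± 1.82 CPM in Taf2 KO and 76.4 ± 4.83 CPM in WT, with a log2 fold change of -0.32 ± 0.0428 (edgeR adjusted p = 1.95e-06). Its partner Etfa had 127, 124, 124 and 125 CPM in Taf2 KO, against 127, 129.9, 129 and 132 CPM in WT. The ranges met at the highest Taf2 KO library, and the log2 difference of -0.05 ± 0.0335 did not pass (edgeR adjusted p = 0.21). The ratio of Etfa to Etfb counts was 1.99 to 2.12 in Taf2 KO and 1.61 to 1.85 in WT.

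The thioesterase genes, whose products release the fatty acid from its CoA ester, gave the 2 largest changes among the 33. Acot2, the mitochondrial enzyme, had 4.70, 5.05, 5.92 and 5.83 CPM in Taf2 KO, against 13.9, 13.2, 13.2 and 11.2 CPM in WT. Its mean was 41.7% of that in WT, with a log2 fold change of -1.26 ± 0.0933 (edgeR adjusted p = 3.85e-10). Acot1, the cytosolic enzyme, had 2.88, 2.25, 3.59 and 2.75 CPM in Taf2 KO, against 1.26, 0.972, 1.57 and 1.17 CPM in WT. It was higher in every Taf2 KO library than in any WT library, with a log2 fold change of 1.22 ± 0.185 (edgeR adjusted p = 1e-05). Both values are uncertain, because the genes are near-identical neighbours (Acot2 at chr12:83987861-83993877 and Acot1 at chr12:84009502-84017670) and the deposited counts of both were not whole in any of the 8 libraries, which marks reads divided between genes. The sum of the pair, which does not depend on a division between them, was 7.58, 7.29, 9.51 and 8.57 CPM in Taf2 KO and 15.2, 14.2, 14.7 and 12.4 CPM in WT. It was lower in every Taf2 KO library. Acot13, a smaller thioesterase associated with mitochondria, averaged 46.7 ± 1.63 CPM in Taf2 KO and 41.1 ± 1.83 CPM in WT (SD, n = 4 each) and rose by 0.18 on the log2 scale (edgeR adjusted p = 0.00128).

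The ketone body enzymes moved apart. Bdh1, which interconverts acetoacetate and beta-hydroxybutyrate, had 6.69, 6.40, 6.22 and 6.39 CPM in Taf2 KO, against 13.4, 11.2, 12.6 and 12.8 CPM in WT. The Taf2 KO libraries were tightly grouped at 51.4% of the WT mean, with a log2 fold change of -0.96 ± 0.0791 (edgeR adjusted p = 2e-09). Acat1, the mitochondrial acetoacetyl-CoA thiolase, averaged 32.0 ± 0.654 CPM in Taf2 KO and 29.1 ± 1.10 CPM in WT (SD, n = 4 each), and rose by 0.14 on the log2 scale (edgeR adjusted p = 0.0195). The call on Acat1 was lost without WT replicate 2 (adjusted p = 0.0655), with library totals only (adjusted p = 0.0605) and after thinning to equal totals (adjusted p = 0.055). Over the 18 alternatives its adjusted p ran from 0.00788 to 1.00.

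Ucp2, which encodes an inner-membrane carrier of the uncoupling protein family, had 10.1, 10.6, 11.2 and 10.3 CPM in Taf2 KO, against 7.98, 6.76, 7.46 and 6.04 CPM in WT. Every Taf2 KO library was higher, with a log2 fold change of 0.58 ± 0.0871 (edgeR adjusted p = 9.05e-06). Ucp2 is known as a gene of macrophages more than of hepatocytes in liver, and in the same libraries the tested macrophage markers had a median log2 fold change of 2.11, with a sum higher by 1.05 on the log2 scale (exact two-sided permutation test, p = 0.0286, the smallest that 4 against 4 libraries can give). Their part in the rise of Ucp2 was not tested.

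**Figure D3:**
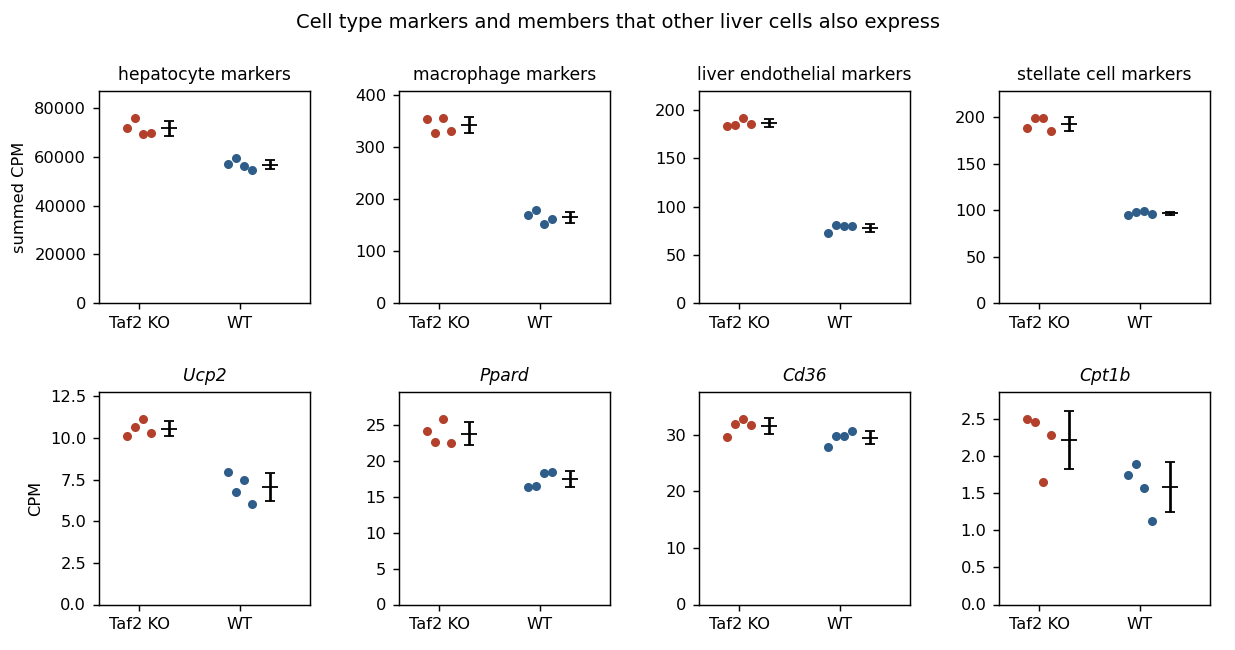
Summed CPM of 4 marker lists (top) and CPM of Ucp2, Ppard, Cd36 and Cpt1b (bottom) in each library, Taf2 KO left and WT right, with points for libraries and a black bar and whiskers for the mean and SD of 4 libraries. The macrophage sums sit at 327 to 357 CPM in Taf2 KO and 153 to 178 CPM in WT, the hepatocyte sums are mostly Alb, and the Cd36 ranges of the genotypes overlap.

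Transcript levels can be compared between genes per length, and CPM per kb of transcript is used for that here. In Taf2 KO the highest mean was that of Fabp1 (164 CPM per kb), followed by Acaa2 (139), Acadm (124) and Etfa (89.8). The Taf2 KO ranges of Fabp1 (147 to 182 CPM per kb) and Acaa2 (131 to 151) overlapped, so the top place is not resolved there. In WT the highest mean was also that of Fabp1 (113 CPM per kb), followed by Etfa (93.0), Acaa2 (91.7), Acadm (87.8), Etfb (85.6) and Echs1 (82.4). Acaa2 and Acadm thus stood above Etfa in Taf2 KO, without overlap. In WT their means were just below that of Etfa, but the ranges overlapped. They were 91.0 to 94.9 CPM per kb for Etfa, 88.7 to 94.2 for Acaa2 and 83.3 to 91.2 for Acadm, so the WT order is not resolved. The lowest levels were those of Cpt1b and Acot1, at 0.765 and 1.26 CPM per kb in Taf2 KO, and at 0.546 and 0.547 CPM per kb in WT. Of the 32 neighbouring pairs in this order, the library ranges overlapped in 14 in Taf2 KO and in 16 in WT, so many adjacent places are not distinguished by these data.

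**Figure D4:**
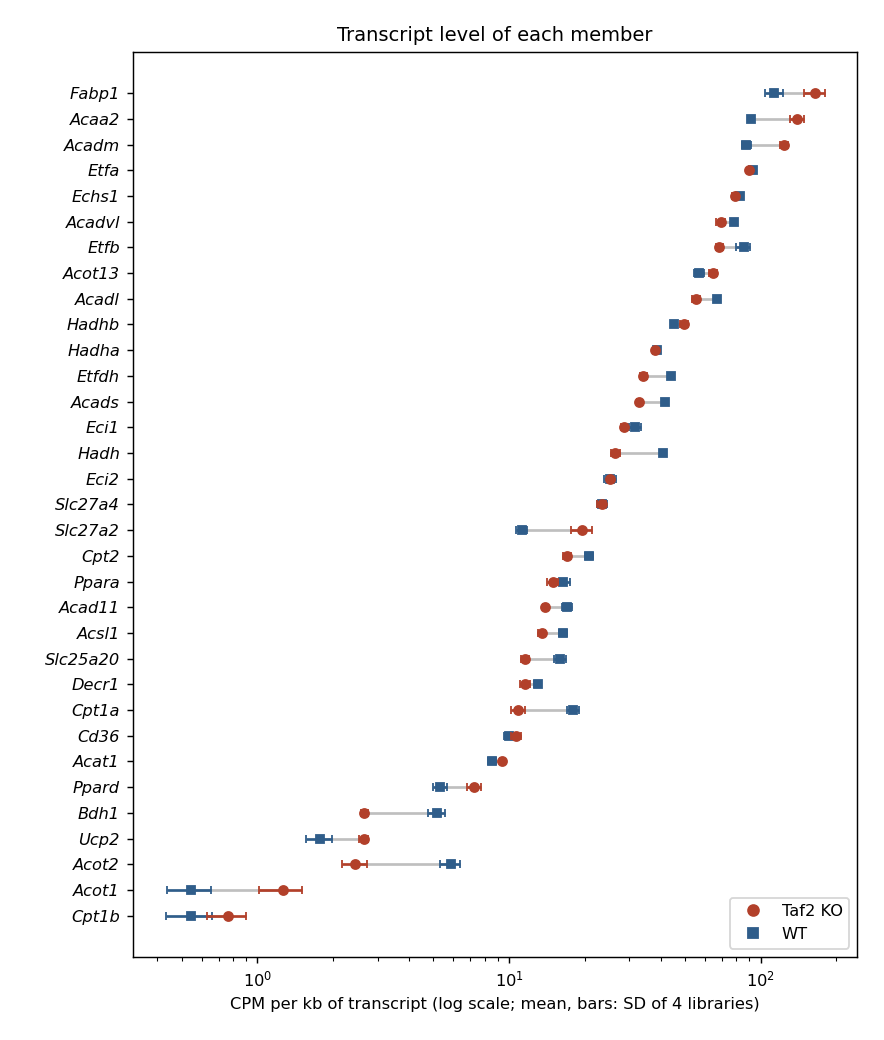
CPM per kb of transcript on a log axis for the 33 genes, ordered by the Taf2 KO level, with red circles for the Taf2 KO mean, blue squares for the WT mean and bars for the SD of 4 libraries. By mean, Fabp1 is at the top in both genotypes (164 CPM per kb in Taf2 KO and 113 in WT) and Cpt1b is at the bottom.

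Counts for the neighbouring lists below stand beside 30.2% of all tested genes called higher and 31.2% called lower, and no difference from those shares was tested. The rest of ketone body metabolism moved in both directions as well. Of 8 tested genes, 4 were higher (50.0%) and 3 lower (37.5%), with a median log2 fold change of 0.12. The monocarboxylate transporter gene Slc16a1 rose by 0.24. Aacs, which activates acetoacetate for lipid synthesis and had the highest mean of the list, averaged 87.2 ± 4.19 CPM in Taf2 KO and 128 ± 3.23 CPM in WT (SD, n = 4 each), with a log2 fold change of -0.55. Oxct1, the enzyme that consumes ketone bodies, fell by 0.46. Slc16a6, a transporter, was lower by -0.11 (edgeR adjusted p = 0.0475), a call that was lost in 13 of 18 alternatives.

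The list of other mitochondrial acyl-CoA enzymes was mostly lower. That list also holds genes whose products lie wholly or partly outside mitochondria, such as Acsl3, Acsl4, Acot7, Acot12, Dbi, Nudt7 and Nudt19. Acsl4, Acot12, Dbi and Nudt7 were among those called lower and Acsl3 among those called higher. The counts are therefore not for mitochondrial enzymes alone. Of 22 tested, 14 were lower (63.6%) and 2 higher (9.09%), and the median log2 fold change was -0.24. Ivd, the isovaleryl-CoA dehydrogenase of leucine breakdown, averaged 17.2 ± 0.357 CPM in Taf2 KO and 33.5 ± 0.592 CPM in WT (SD, n = 4 each), a log2 fold change of -0.96. Lower values were also found for the acyl-CoA synthetase genes Acsl4 (log2 fold change -0.38), Acsm1 (-0.46) and Acsl5 (-0.29), the last with the highest mean of the list. Acsl3, a further synthetase, was higher by 0.16, and its deposited counts were not whole in 7 libraries. Acsm3 was higher by 0.29 (edgeR adjusted p = 0.0458), a call lost in 12 of 18 alternatives.

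For control of fatty acid entry by carnitine and malonyl-CoA, of 9 tested genes 4 were lower (44.4%, against 31.2% of all genes) and 0 higher by edgeR, with 0 higher at an unadjusted p under 0.05 and 0 by DESeq2, and the median log2 fold change was -0.10. Prkaa2, a catalytic subunit of AMP-activated protein kinase, averaged 66.7 ± 2.89 CPM in Taf2 KO and 91.3 ± 8.08 CPM in WT (SD, n = 4 each), a log2 fold change of -0.45. Acaca, which makes malonyl-CoA, fell by 0.30. Crot, the peroxisomal carnitine octanoyltransferase and the most abundant of the list, was lower by -0.09 (edgeR adjusted p = 0.0285), a call lost in 7 of 18 alternatives.

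The list for peroxisomal beta-oxidation, which handles very long and branched chains, had shares near those of the whole table. That list also holds Phyh, Cat and Hao1, which are peroxisomal enzymes but not enzymes of beta-oxidation. Of 19 tested genes 7 were higher (36.8%, against 30.2% of all genes) and 6 lower (31.6%, against 31.2%), with a median log2 fold change of 0.04. Acaa1b, a peroxisomal thiolase, averaged 82.9 ± 9.76 CPM in Taf2 KO and 35.8 ± 2.59 CPM in WT (SD, n = 4 each), a log2 fold change of 1.21, although its counts were not whole in any library and may be divided with its close copy Acaa1a. Phyh, which starts the breakdown of phytanic acid, rose by 0.49 and the catalase gene Cat, the most abundant of the list, by 0.35. Hsd17b4, the multifunctional enzyme of the pathway, averaged 117 ± 3.17 CPM in Taf2 KO and 181 ± 5.47 CPM in WT, a log2 fold change of -0.63. Hao1, a peroxisomal oxidase, fell by 0.67 and Amacr, a racemase for branched chains, fell by 0.89.

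Known PPAR-alpha targets outside the mitochondrial pathway had large changes in both directions. Of 25 tested, 9 were higher and 9 lower (36.0% each, against 30.2% and 31.2% of all genes), with a median log2 fold change of -0.05. A call with a change of at least 0.4 was made for 13 (52.0%), against 27.3% of all genes. The 3 higher genes with the smallest adjusted p were Hilpda, a lipid droplet protein (log2 fold change 2.06), Txnip, an inhibitor of thioredoxin (2.46), and Vldlr, a lipoprotein receptor (1.60). Hilpda averaged 78.3 ± 3.91 CPM in Taf2 KO and 18.8 ± 1.68 CPM in WT (SD, n = 4 each). Vnn1, a pantetheinase, averaged 3.04 ± 0.496 CPM in Taf2 KO and 9.25 ± 0.167 CPM in WT, a log2 fold change of -1.61. Cyp4a31, a fatty acid hydroxylase gene with close copies and no whole counts, had a log2 fold change of -2.15, and Plin4, a lipid droplet protein, of -0.76. Plin2, the most abundant of the list, did not pass, at 973 ± 64.2 CPM in Taf2 KO and 961 ± 30.8 CPM in WT. Pdk4, an inhibitor of pyruvate oxidation that was named after its values were seen, averaged 18.7 ± 0.699 CPM in Taf2 KO and 7.19 ± 0.425 CPM in WT.

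Partners and coregulators of PPAR-alpha were lower in 9 (40.9%) and higher in 5 (22.7%) of 22 cases, with a median log2 fold change of -0.03. Ncoa2, a coactivator, was lower by -0.48 and Ncor1, a corepressor, by -0.43. Pparg, the PPAR family member best known in fat, averaged 10.9 ± 0.838 CPM in Taf2 KO and 15.2 ± 0.474 CPM in WT (SD, n = 4 each), a log2 fold change of -0.48. Nrip1, a corepressor of nuclear receptors, was higher by 0.74, and the lipin genes Lpin2 and Lpin1 by 0.54 and 0.48. Hnf4a, a hepatocyte transcription factor and one of the marker genes, was at 366 ± 1.86 CPM in Taf2 KO and 356 ± 8.02 CPM in WT, which did not pass (edgeR adjusted p = 0.268).

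Among uptake and binding genes beyond the 33, 6 of 10 tested were higher and 2 lower, with a median log2 fold change of 0.31. Slc27a5, a liver transport protein and bile acid CoA ligase, averaged 338 ± 25.6 CPM in Taf2 KO and 224 ± 8.35 CPM in WT (SD, n = 4 each), a log2 fold change of 0.60. Slc27a1 rose by 1.16 at a low level, 3.86 ± 0.390 CPM in Taf2 KO and 1.72 ± 0.242 CPM in WT, and the hepatic lipase gene Lipc rose by 0.33. The lysosomal lipase gene Lipa fell by 0.56 and Got2, an aminotransferase that also binds fatty acids at the membrane and the most abundant of the list, fell by 0.28.

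In the list for fatty acid synthesis, the opposing pathway, 12 (66.7%) of 18 tested genes were lower and 4 (22.2%) higher. The median log2 fold change was -0.20. That list also holds genes of triglyceride synthesis (Gpam, Dgat1 and Dgat2), desaturases of polyunsaturated chains (Fads1 and Fads2) and regulators (Srebf1, Mlxipl and Thrsp). Gpam, Dgat1, Dgat2, Fads1 and Fads2 were among those called lower, and Srebf1 and Thrsp among those called higher. Elovl6, an elongase, averaged 51.3 ± 3.44 CPM in Taf2 KO and 101 ± 6.64 CPM in WT (SD, n = 4 each), a log2 fold change of -0.97. Acss2, which activates acetate, was lower by -0.63. Thrsp, a lipogenic regulator, averaged 21.9 ± 2.19 CPM in Taf2 KO and 11.2 ± 0.723 CPM in WT, a log2 fold change of 0.97, and Me1, which supplies NADPH, rose by 0.12. The desaturase genes Scd1, the most abundant of the list, and Scd2 had log2 fold changes of 0.23 and -0.88, and counts of both were not whole in any library.

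**Figure D5:**
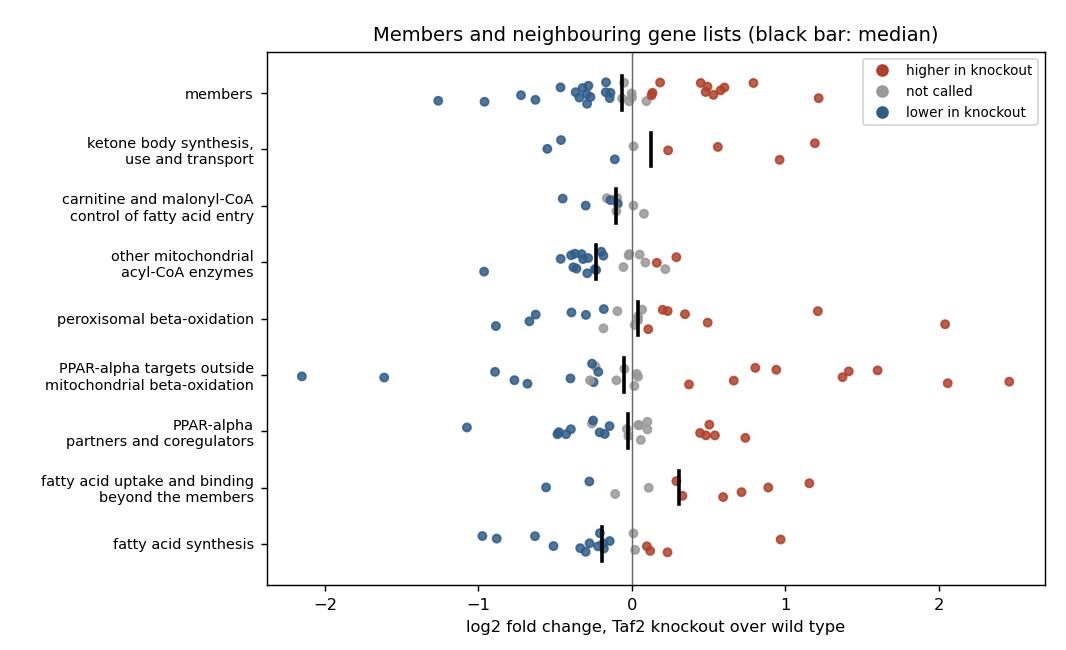
Log2 fold change (Taf2 KO over WT) of the 33 genes (top row) and of the tested genes of 8 neighbouring lists, with 1 point per gene, red for called higher, blue for called lower and grey for not called, and a black bar at each median. Medians run from -0.24 (other mitochondrial acyl-CoA enzymes) to 0.31 (uptake and binding beyond the 33), and every list except carnitine and malonyl-CoA control holds called genes on both sides of 0.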

How the data were processed

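RNA sequencing of 8 liver hepatocyte libraries, 4 per genotype, was analysed. The authors deposited expected counts per gene from RSEM on mm10, per the submitters' processing notes. The sources used here give neither aligner nor trimming nor strand setting, so overlapping antisense genes may share counts. RSEM divides ambiguous reads, so 2.85% of values were not whole (tolerance 1e-06). Another 8 columns of the table, which no sample label names, were left out.

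Expected counts were rounded. Genes were filtered with filterByExpr (minimum count 10, minimum total 15), leaving 12122 of 24411. Libraries were scaled by TMM and compared by genotype with edgeR's quasi-likelihood test, adjusted by Benjamini-Hochberg (threshold 0.05). Each SE was taken from the fold change and its F statistic. The fit was tested on simulated counts with few changed genes. That does not test it where most genes are called, as in these data. Software was edgeR 4.0.16 with DESeq2 1.42.0 and limma 3.58.1, under R 4.3.3. Within each genotype the libraries differed beyond counting noise (chi-square per degree of freedom 3.16 to 8.60) and each counted once. The biological coefficient of variation was 4.57%. Depth limits the precision of genes near 1 CPM. Lengths were means over GENCODE transcripts that match the table's RefSeq transcripts.

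The members and lists were chosen with earlier results of these data known, and marker and pathway lists are from general knowledge. Values per library are given for members called with a log2 fold change of at least 0.4 in either direction, members not called and Ppara. From each list, up to 3 called genes per direction with the smallest adjusted p and the gene with the highest mean are named. Some genes that this rule takes are not reported here. The comparison among genes of at least 10 CPM was chosen after the data were seen. Alternatives were other scalings, filters, DESeq2, limma-voom, glmTreat against 0.2, a replicate block, thinning and leaving out each library.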

Additional observations from a re-analysis of the deposited data

Results flagged for a closer look

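In 17 of 174 groups of 4 libraries (9.77%), 1 library stood apart from the other 3 by Dixon's criterion, which chance meets in about 1 in 20. Among the 33 genes, Taf2 KO groups with 1 high library were Cpt2 (42.5 CPM), Acads (63.4 CPM), Eci2 (39.6 CPM) and Etfa (127 CPM). WT groups with 1 low library were Slc27a2 (30.1 CPM), Acad11 (54.9 CPM) and Etfdh (103 CPM), and Hadha had 1 high WT library (160.3 CPM).

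Among list genes, 1 library was high in Taf2 KO for Plin4 (9.35 CPM), Pparg (12.2 CPM), Slc27a1 (4.45 CPM) and Lipa (72.8 CPM), and high in WT for Vldlr (44.6 CPM) and Lpin1 (55.3 CPM). It was low in WT for Acsl4 (176 CPM), Slc27a1 (1.36 CPM) and the summed endothelial markers (72.2 CPM).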

How the results depend on the processing

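Requiring a change of more than 0.2 (glmTreat) left 19 of the 33 genes called, against 27, with 7 higher, against 11. The calls lost were those of Ppara, Cpt1b, Acadvl, Hadhb, Eci1, Decr1, Acot13 and Acat1. Over the whole table glmTreat left 34.3% of genes called, against 61.4%, with 2190 higher and 1969 lower, against 3663 and 3784. It left 4 peroxisomal genes higher, 4 PPAR-alpha partners lower, and 1 synthesis gene higher and 7 lower. Lower carnitine and malonyl-CoA genes numbered 2 with glmTreat, upper-quartile scaling or the stricter filter, and 2 to 4 with libraries left out. Higher genes of the other mitochondrial list numbered 0 with glmTreat, 1 with library totals only, DESeq2, limma-voom, no filter or thinning, and 1 to 2 with libraries left out. The members' median was -0.0899 with library totals only. Genes near 0 changed sign. Slc27a4 was -0.0262 with library totals only, -0.00657 with no filter and -0.0321 to 0.0357 with libraries left out. Hadha was 0.00734 with upper-quartile scaling. Eci2 was 0.00425 with RLE scaling, 0.00423 with DESeq2, 0.0228 with upper-quartile scaling, 0.0107 with the stricter filter and -0.0356 to 0.0266 with libraries left out. Plin2 was -0.0104 with library totals only and -0.00934 to 0.0573 with libraries left out. Deviations of same-numbered libraries correlated at 0.0114, -0.0686, 0.0060 and -0.0075. Such values cannot show whether libraries were collected in pairs, which the labels do not state. With a replicate block, 27 of the 33 genes were called, all 27 shared with the fit without it, and Eci2 was 4.9e-05. Leaving out the most abundant marker of a list, chosen after seeing the data, gave sums with a log2 ratio of -0.18 for hepatocytes without Alb, 1.06 for blood cells without Alas2, and 0.94 for fat and muscle without Fabp4 (exact permutation p = 0.0857), against 0.34, -0.34 and 0.38 with it. Apart from these sums, the cause of the shifts was not tested.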
